A study of Homo sapiens with 6 samples.

Results

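This set of 10 genes of fatty acid synthesis and remodelling was followed in BE(2)-C cells, an established human neuroblastoma line that carries MYCN amplification. The cells received either 10 µM NCT-503 or its vehicle DMSO for 2 days. The genes are ACLY, ACACA, ACACB, FASN, SCD, ELOVL5, ELOVL6, ACSL4, LPCAT3 and SREBF1, taken as a list by gene symbol, and all 10 had a row among the 14779 genes with a named row. NCT-503 inhibits PHGDH, the enzyme that opens serine synthesis from glucose. Both groups were grown in the same serum-containing medium, each holds 3 samples that the series' design text calls independent without saying whether they were separate cultures, and each sample was read on 1 Affymetrix whole-transcript array. A single cell line was used, and lipids, enzyme activities and proteins were not measured here.

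Fatty acids are built in the cytosol from acetyl-CoA. ACLY makes acetyl-CoA from citrate, the carboxylases ACACA and ACACB turn it into malonyl-CoA in the committed step, and FASN condenses these units into palmitate. SCD then adds a double bond, the ELOVL enzymes lengthen the chain, ACSL4 activates long polyunsaturated chains, and LPCAT3 places such chains into phospholipids. SREBF1 encodes a membrane-bound transcription factor that drives most of these genes once it is released from the endoplasmic reticulum.

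With NCT-503, 6 of the 10 transcripts fell, 1 rose and 3 did not pass the test. The falls were those of the carboxylases ACACA (1.79-fold) and ACACB (1.57-fold), of FASN (1.44-fold) and of ELOVL6 (1.58-fold). The phospholipid enzyme LPCAT3 (1.74-fold) and the regulator SREBF1 (1.43-fold) fell too. ACSL4 rose 1.54-fold. ACLY, SCD and ELOVL5, which lie at the entrance, the desaturation and a later elongation step, were not called.

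A call is an adjusted p under 0.05 from limma with Benjamini-Hochberg adjustment over all 14779 genes. Every change is a log2 difference of NCT-503 from DMSO (treated minus vehicle), given with limma's standard error (SE), and folds are 2 to the power of the change. Over all genes, 17.1% were called lower and 16.4% higher, against 6 and 1 of these 10 genes. Calls were more frequent among brighter genes, and all 10 lie above the 50th percentile of mean level. With only the 7389 genes above it tested, 2377 were called lower and 2153 higher, against 7 and 1 of the 10. The median change was -0.52 over the 10 genes and 0.06 over all genes. The 10 genes were chosen with earlier results of these data known, so these contrasts may partly reflect that choice. Higher calls were 48.8% of all calls, and 60.4% (3345 higher, 2189 lower) when arrays were aligned at their 75th percentile; the same 7 of the 10 genes were called then. Since separate cultures are not stated, the p-values reflect only how far these samples differ, which may be technical. In bulk RNA, fewer cells of one kind and less transcript per cell cannot be told apart.

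**Figure D1:**
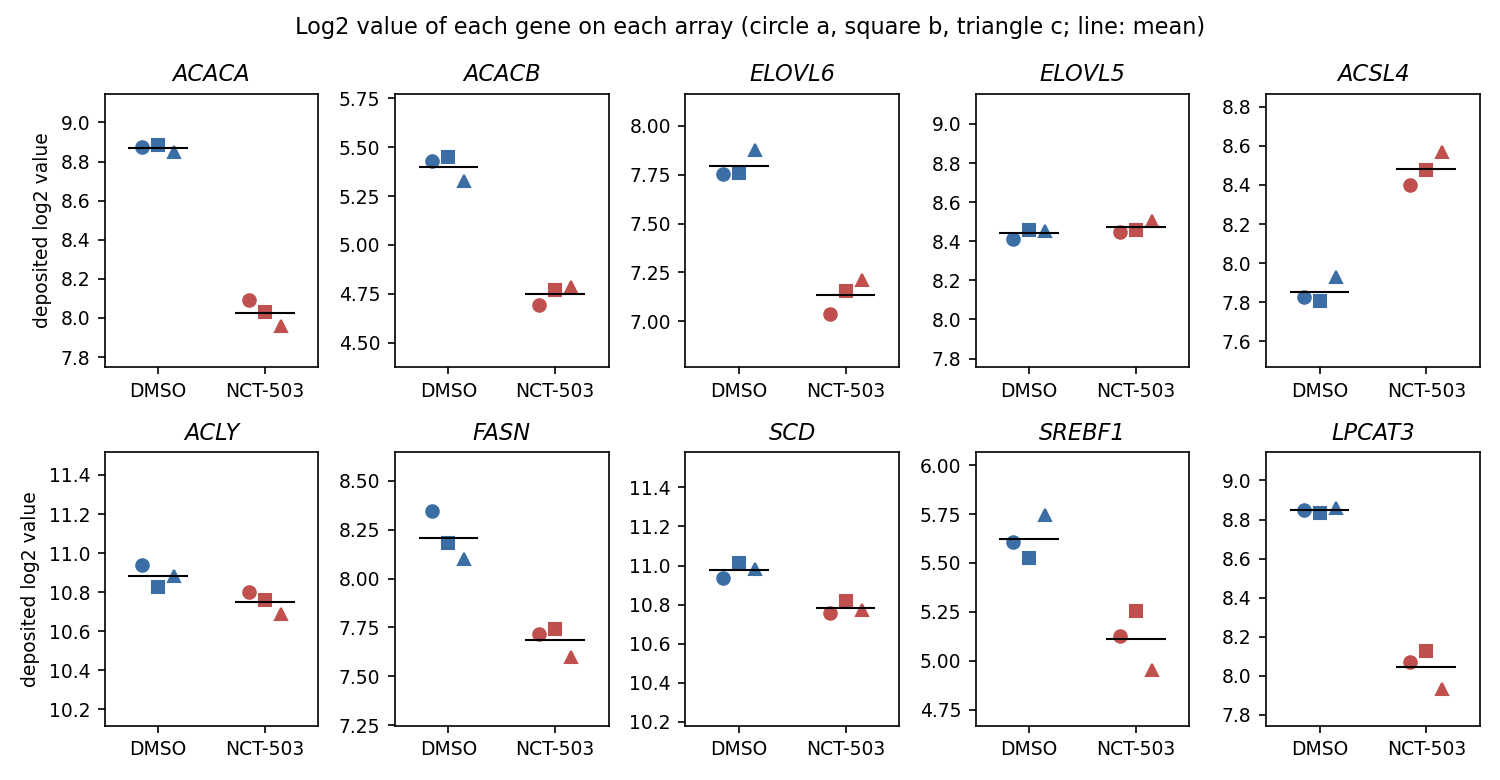
Deposited log2 value of each of the 10 genes on each of the 6 arrays, with 1 panel per gene, the same height of axis in every panel and a line at each group's mean. The groups are wholly apart in 9 panels, and only in ELOVL5 do they overlap.

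Promoters are shown for the pair of carboxylase genes that fell together, for LPCAT3, which had the second largest fall of the 10, and for ACSL4, which rose. The windows run from 250 bases before to 50 bases after the gene start in the RefSeq table of build GRCh38.p14, 5′ to 3′ on the gene's strand, and 9 of the 10 genes (not FASN) were matched by symbol. Capitals mark a GC box (GGGCGG) or a CCAAT box (CCAAT), read on either strand.
ACACA, chr17:37406787-37407086, minus strand: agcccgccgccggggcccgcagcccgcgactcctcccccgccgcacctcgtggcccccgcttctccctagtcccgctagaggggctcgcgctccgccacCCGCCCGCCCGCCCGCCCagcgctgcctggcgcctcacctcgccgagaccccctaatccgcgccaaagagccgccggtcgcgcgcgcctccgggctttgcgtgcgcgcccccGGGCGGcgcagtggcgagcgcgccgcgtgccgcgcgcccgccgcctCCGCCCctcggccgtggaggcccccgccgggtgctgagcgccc
ACACB, chr12:109116337-109116636, plus strand: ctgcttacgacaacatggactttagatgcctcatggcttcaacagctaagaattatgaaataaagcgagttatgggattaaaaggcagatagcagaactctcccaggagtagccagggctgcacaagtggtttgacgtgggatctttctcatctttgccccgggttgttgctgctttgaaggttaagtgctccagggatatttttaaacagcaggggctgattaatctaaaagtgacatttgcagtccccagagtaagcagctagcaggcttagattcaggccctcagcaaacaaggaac
LPCAT3, chr12:7018427-7018726, minus strand: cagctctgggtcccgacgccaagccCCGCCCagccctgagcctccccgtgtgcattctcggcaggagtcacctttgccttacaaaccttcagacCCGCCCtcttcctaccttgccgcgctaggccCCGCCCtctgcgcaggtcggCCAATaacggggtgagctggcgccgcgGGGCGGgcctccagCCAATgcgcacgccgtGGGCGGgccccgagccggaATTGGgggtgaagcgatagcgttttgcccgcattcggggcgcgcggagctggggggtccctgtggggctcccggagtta
ACSL4, chrX:109733208-109733507, minus strand: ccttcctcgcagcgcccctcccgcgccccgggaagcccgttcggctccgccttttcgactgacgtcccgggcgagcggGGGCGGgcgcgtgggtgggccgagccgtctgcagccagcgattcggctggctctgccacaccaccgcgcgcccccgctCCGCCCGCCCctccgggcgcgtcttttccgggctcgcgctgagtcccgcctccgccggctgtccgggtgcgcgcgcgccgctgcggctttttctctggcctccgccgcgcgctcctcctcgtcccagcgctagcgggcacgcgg

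Of these 4 windows, that of ACACB stood apart in base composition. The ACACA window held 82.3% G and C and 6 GC boxes, 4 of them overlapping in 1 run, whereas the ACACB window held 46.0% G and C and neither motif, although both transcripts fell. LPCAT3 (70.0% G and C) had 5 GC boxes and 3 CCAAT boxes, and ACSL4 (77.7%) had 3 GC boxes. The median over the 10715 promoters of tested genes was 63.3% G and C.

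The 5 motifs were searched on both strands of the 9 windows, and matches to different motifs did not overlap. GC boxes were found in 7 windows (all but ACACB and ELOVL5), against 60.5% of the promoters of tested genes and 44.6% of all 27305 promoters in the table. CCAAT boxes were found in 4 (ACLY, SCD, ELOVL5 and LPCAT3), against 36.0% of tested genes and 35.7% of all. The E-box CACGTG stood in ELOVL5 alone of the 9, against 9.03% of tested genes and 7.43% of all. The sterol regulatory element core TCACNCCAC had no match in these 9 windows, against 1.11% of tested genes and 1.15% of all. The C/EBP-ATF element TGATGNAA had no match either, against 2.23% of tested genes and 3.67% of all. That says only that these letters are not in the windows.

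ACLY, ATP citrate lyase, supplies cytosolic acetyl-CoA. Its values were 10.94, 10.83 and 10.88 on DMSO arrays a, b and c and 10.80, 10.76 and 10.69 on NCT-503 arrays a, b and c. The treated arrays were all lower, but by a gap of only 0.025 between the nearest arrays. The change of -0.13 ± 0.075 was not called (adjusted p = 0.215, limma), and its 95% interval ran from -0.31 to 0.04.

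Acetyl-CoA carboxylase exists as ACACA, the cytosolic form that feeds synthesis, and ACACB, a form at the mitochondrial surface whose malonyl-CoA restrains fatty acid import. ACACA was 8.87, 8.88 and 8.85 with DMSO and 8.09, 8.03 and 7.96 with NCT-503. All treated arrays lay at least 0.75 below the lowest DMSO array, and the DMSO arrays differed little (SD 0.018, n = 3). ACACA fell by 0.84 ± 0.074 (adjusted p = 0.00023, limma), which exceeds the absolute change of 93.6% of the genes tested.

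ACACB, at a lower signal, was 5.43, 5.45 and 5.33 with DMSO and 4.69, 4.77 and 4.78 with NCT-503. Here too the groups were apart, by 0.54. It fell by 0.65 ± 0.075 (adjusted p = 0.00073, limma). The 95% intervals of the carboxylase changes, -1.01 to -0.67 for ACACA and -0.83 to -0.48 for ACACB, overlap.

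FASN, the multifunctional fatty acid synthase, was 8.34, 8.18 and 8.10 with DMSO and 7.71, 7.74 and 7.60 with NCT-503. The DMSO arrays spread more here (SD 0.12, n = 3) than in ACACA, yet the groups stayed 0.36 apart. FASN fell by 0.52 ± 0.092 (adjusted p = 0.0044, limma).

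SCD, stearoyl-CoA desaturase, makes oleate and palmitoleate and was among the brightest rows, with 99.7% of genes at a lower mean. Its values were 10.94, 11.02 and 10.98 with DMSO and 10.76, 10.82 and 10.77 with NCT-503. The groups did not overlap, with a gap of 0.12, and the replicate spread was small (pooled SD 0.037, below that of all but 2.94% of genes). Even so, the change of -0.20 ± 0.071 missed the threshold (adjusted p = 0.0717, limma; 95% interval -0.36 to -0.03). SCD was called lower under 5 of the 18 alternative settings, among them no moderation (adjusted p = 0.0181) and quantile normalization (0.0197), and ACLY under 2.

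ELOVL6 lengthens palmitate to stearate, and ELOVL5 lengthens polyunsaturated chains. ELOVL6 was 7.75, 7.76 and 7.88 with DMSO and 7.04, 7.15 and 7.21 with NCT-503. The treated arrays were all at least 0.54 lower, and ELOVL6 fell by 0.66 ± 0.083 (adjusted p = 0.00104, limma).

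ELOVL5 was 8.41, 8.46 and 8.45 with DMSO and 8.45, 8.46 and 8.50 with NCT-503. Its groups overlapped, and its change of 0.03 ± 0.069 was not called (adjusted p = 0.769, limma), with a 95% interval of -0.13 to 0.19. That interval lies above the one of ELOVL6, -0.86 to -0.47, and the difference itself was not tested.

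ACSL4, an acyl-CoA synthetase that prefers arachidonate and other polyunsaturated chains, was 7.83, 7.81 and 7.93 with DMSO and 8.40, 8.47 and 8.57 with NCT-503. It alone of the 10 was called higher: all treated arrays lay at least 0.47 above the highest DMSO array. ACSL4 rose by 0.63 ± 0.082 (adjusted p = 0.00123, limma).

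LPCAT3, a lysophospholipid acyltransferase that inserts polyunsaturated chains into membrane phospholipids, was 8.85, 8.83 and 8.86 with DMSO and 8.07, 8.13 and 7.93 with NCT-503. The DMSO arrays agreed closely (SD 0.014), and the treated arrays were all lower by at least 0.70. LPCAT3 fell by 0.80 ± 0.080 (adjusted p = 0.000402, limma), so of the polyunsaturated-chain enzymes in the list it fell, ACSL4 rose and ELOVL5 was not called.

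SREBF1, the regulator, was 5.61, 5.52 and 5.74 with DMSO and 5.13, 5.25 and 4.95 with NCT-503. It was the noisiest of the 10 (pooled SD 0.13), near the median SD of all genes, and the groups were still 0.27 apart. SREBF1 fell by 0.51 ± 0.10 (adjusted p = 0.00841, limma). One row was read per gene, so transcript forms are not separated, and the active cleaved protein was not measured.

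**Figure D2:**
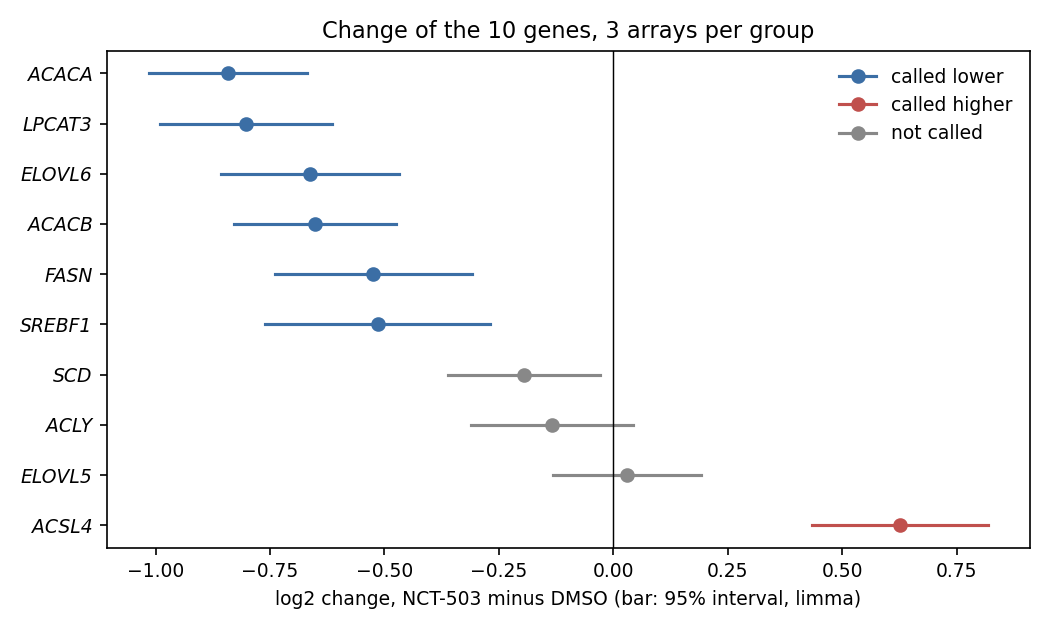
Log2 change of each of the 10 genes, NCT-503 minus DMSO, with limma's 95% interval over 3 arrays per group, coloured by call. The 6 genes called lower run from -0.84 (ACACA) to -0.51 (SREBF1), ACSL4 stands alone at 0.63, and the SCD interval of -0.36 to -0.03 ends close to 0.

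By size, the falls ran ACACA, LPCAT3, ELOVL6, ACACB, FASN, SREBF1. Neighbours in that order had overlapping 95% intervals, so their order is not resolved. Without overlap between groups were 9 of the 10 genes, 8 of them lower and 1 higher, whereas 47.9% of all genes did not overlap in either direction and 22.4% did so with lower treated values. Each of the 7 calls held, with the same direction, in each of the 18 alternative settings. The lowest and highest values of the change were -0.87 and -0.77 for ACACA, -0.85 and -0.73 for LPCAT3, -0.58 and -0.43 for SREBF1, and 0.58 and 0.70 for ACSL4.

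**Figure D3:**
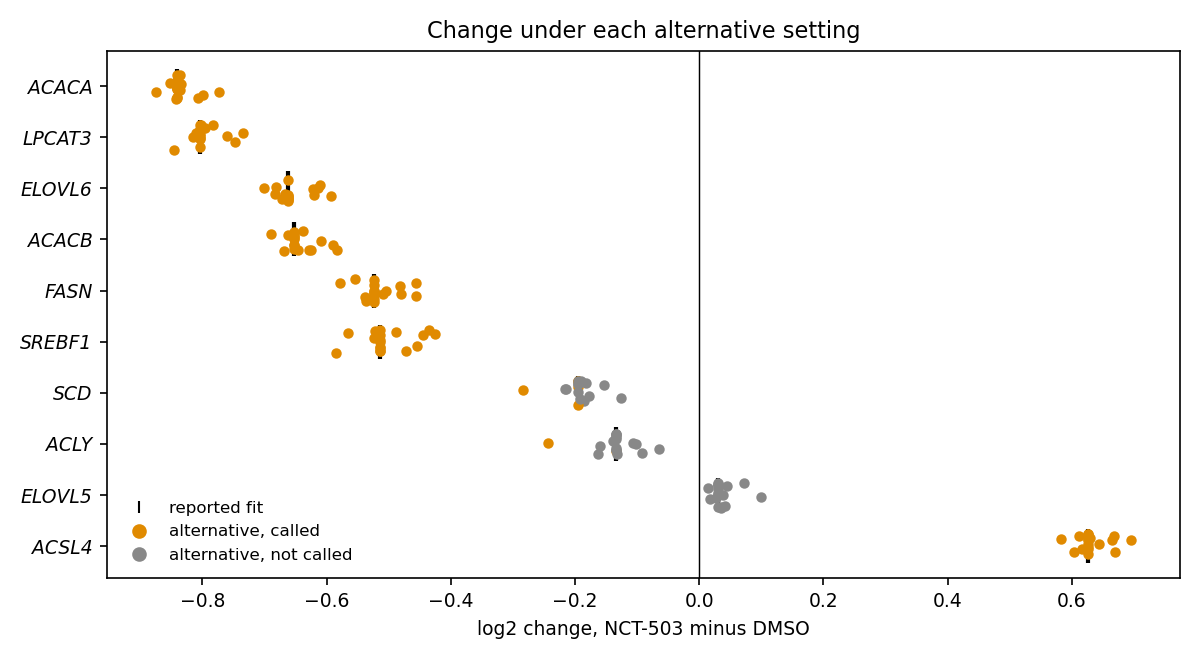
Log2 change of each of the 10 genes in the reported fit (black tick) and under the 18 alternative settings (points, orange where called and grey where not). The points stay on the side of 0 of the reported fit for every gene, and the calls change for SCD (5 settings) and ACLY (2 settings).

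The 3 genes whose pattern over the 6 arrays lay nearest to ACACA, each gene centred on its own mean, were STARD7, a phosphatidylcholine carrier, AREL1, an E3 ubiquitin ligase, and CHD8, a chromatin remodeller. Their mean absolute differences from ACACA over the 6 arrays were 0.013, 0.023 and 0.025, and their changes were -0.86, -0.87 and -0.87. With 2 groups of 3, this likeness is mostly a like difference between groups.

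Calls differed within the families of the 10 genes. Of 7 measured elongases ELOVL6 fell, ELOVL1, which serves very long saturated chains, rose by 0.43 ± 0.11 (adjusted p = 0.0192, limma), and 5 were not called: ELOVL2 (0.20), ELOVL3 (-0.07), ELOVL4 (0.05), ELOVL5 (0.03) and ELOVL7 (0.23). The ELOVL1 call was lost when NCT-503 a, NCT-503 c or DMSO c was left out (adjusted p from 0.0531 to 0.0554), and ELOVL7 was called higher with median or 75th percentile centring. ELOVL2, ELOVL3 and ELOVL7 had means under 3.6, where an array's change can be understated.

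LPCAT1, which acts mainly on saturated chains, fell with LPCAT3. Its mean was 7.37 ± 0.027 with DMSO and 6.64 ± 0.051 with NCT-503 (SD, n = 3), and it fell by 0.73 ± 0.071 (adjusted p = 0.000376, limma). LPCAT2 (-0.03) and LPCAT4 (0.03) were not called. Of 4 measured ACSL genes, ACSL4 and ACSL5 rose, ACSL5 from a dim 2.23 by 0.45 ± 0.10, and ACSL1 (-0.15) and ACSL6 (0.25) were not called. SCD5, the second human desaturase of this kind, changed by -0.12 and SREBF2, the paralog that mainly drives cholesterol genes, by -0.01, neither called. The SREBF1 interval of -0.76 to -0.27 does not reach the SREBF2 value, and the difference was not tested.

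**Figure D4:**
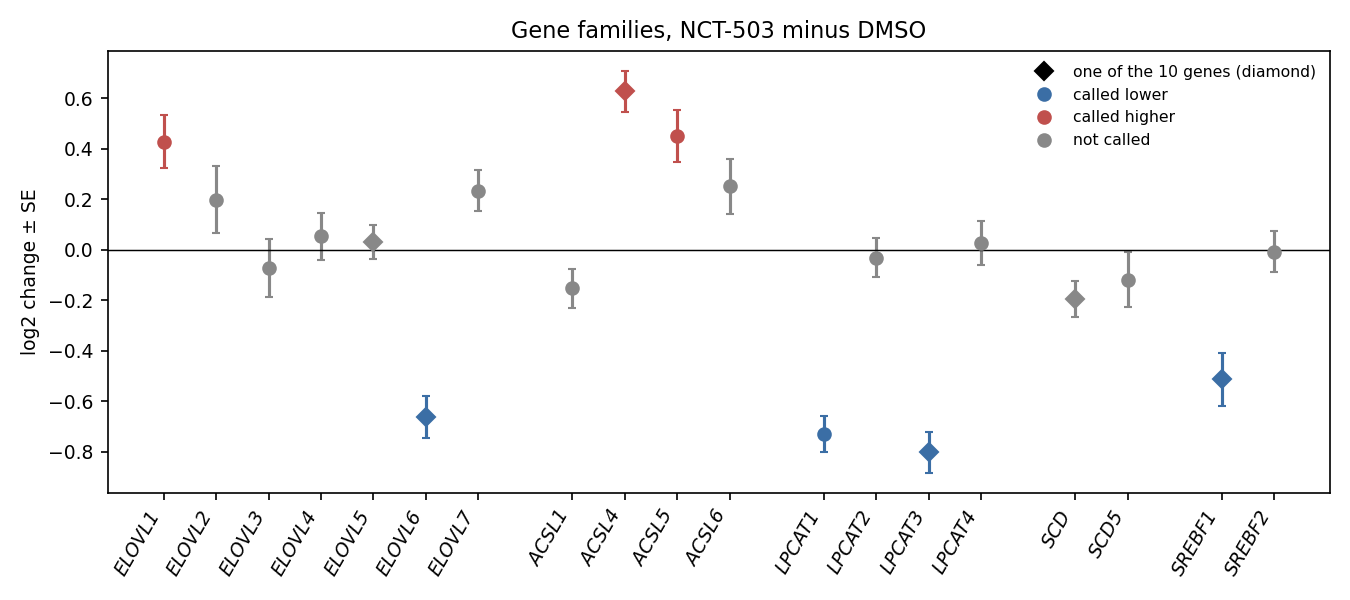
Log2 change with limma's SE for the measured genes of the ELOVL, ACSL, LPCAT, SCD and SREBF families, with diamonds for members of the 10 and colours by call. Both directions occur among the elongases, and LPCAT1 and LPCAT3 lie at -0.73 and -0.80 beside LPCAT2 and LPCAT4 near 0.

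The rest of the pathway was read from lists of whole families and pathways, whose counts stand beside 17.1% of all genes called lower and 16.4% higher. Of 151 listed genes beside the 10, only 86 had a named row, so counts and medians cover only part of each list. Among those without a row were ACSL3, DBI, GPAM, PRKAA1 and PRKAA2. Beside the 10 genes, 8 others of acetyl-CoA supply and chain synthesis were measured. ACSS2, which makes acetyl-CoA from acetate, rose by 0.58 ± 0.11 (adjusted p = 0.00549, limma), and CBR4, a subunit of a reductase of mitochondrial fatty acid synthesis, fell by 0.44 ± 0.100 (adjusted p = 0.0138). The median of the 8 was -0.03, and 2 were called higher under each of the other scalings. Of 16 further elongation and desaturation genes, FADS2, the desaturase that opens polyunsaturated chain synthesis, fell by 0.51 ± 0.10, and FADS3 and ELOVL1 rose, FADS3 by 0.50 ± 0.11 (median -0.03). With median or 75th percentile centring, 4 of these 16 were called higher, and with quantile normalization 3 were called lower. Of all 14779 genes, 2990 and 3345 were called higher with those centrings, and 2325 lower with quantile normalization.

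Among 18 further acyl-CoA synthetases, carriers and thioesterases, 7 rose and none fell, beside ACSL4. Their median change was 0.24. ACBD3 and ACBD5, which bind acyl-CoA at the Golgi and at peroxisomes, rose by 0.75 ± 0.083 and 0.75 ± 0.074, and the thioesterase ACOT13 by 0.55 ± 0.10. Of the 7, ACSM1 lost its call without DMSO a or b or NCT-503 a or c (adjusted p from 0.0568 to 0.0720, limma). ACSM1 also lost it with quantile normalization. ACSF2 lost its call without DMSO a or c or NCT-503 a or b (0.0526 to 0.0604). ACSL5, ACSM1 and ACSBG1 were dim, with means over all arrays of 2.46, 2.87 and 3.06.

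Of 11 phospholipid remodelling genes beside LPCAT3, 3 fell and 4 rose (median 0.02). The lipase-like ABHD3 fell by 0.74 ± 0.11 and the phospholipase PNPLA8 rose by 0.51 ± 0.095. The other calls beside LPCAT1 were lost when single arrays were left out: MBOAT1 (lower) without DMSO b or NCT-503 a or c (adjusted p up to 0.0744), MBOAT7 (higher) without any array but DMSO b (up to 0.124), TAFAZZIN (higher) without any DMSO array (up to 0.0790) and PNPLA6 (higher) without DMSO b or c or NCT-503 a or b (up to 0.0666). Among 11 further regulators, 2 fell and 2 rose (median -0.01). INSIG1, which holds SREBP precursors in the endoplasmic reticulum, rose by 1.61 ± 0.100 (adjusted p = 7.15e-05, limma), and SCAP, their escort, changed by 0.02 (adjusted p = 0.906). PPARG, a lipid-sensing nuclear receptor, fell by 0.79 ± 0.12, and MLX, partner of the carbohydrate-responsive factor, rose by 0.45 ± 0.094. The second fall was that of STK11, a kinase upstream of AMPK (-0.39), whose call was lost without any array but NCT-503 a (adjusted p from 0.0552 to 0.0827) and with quantile normalization.

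**Figure D5:**
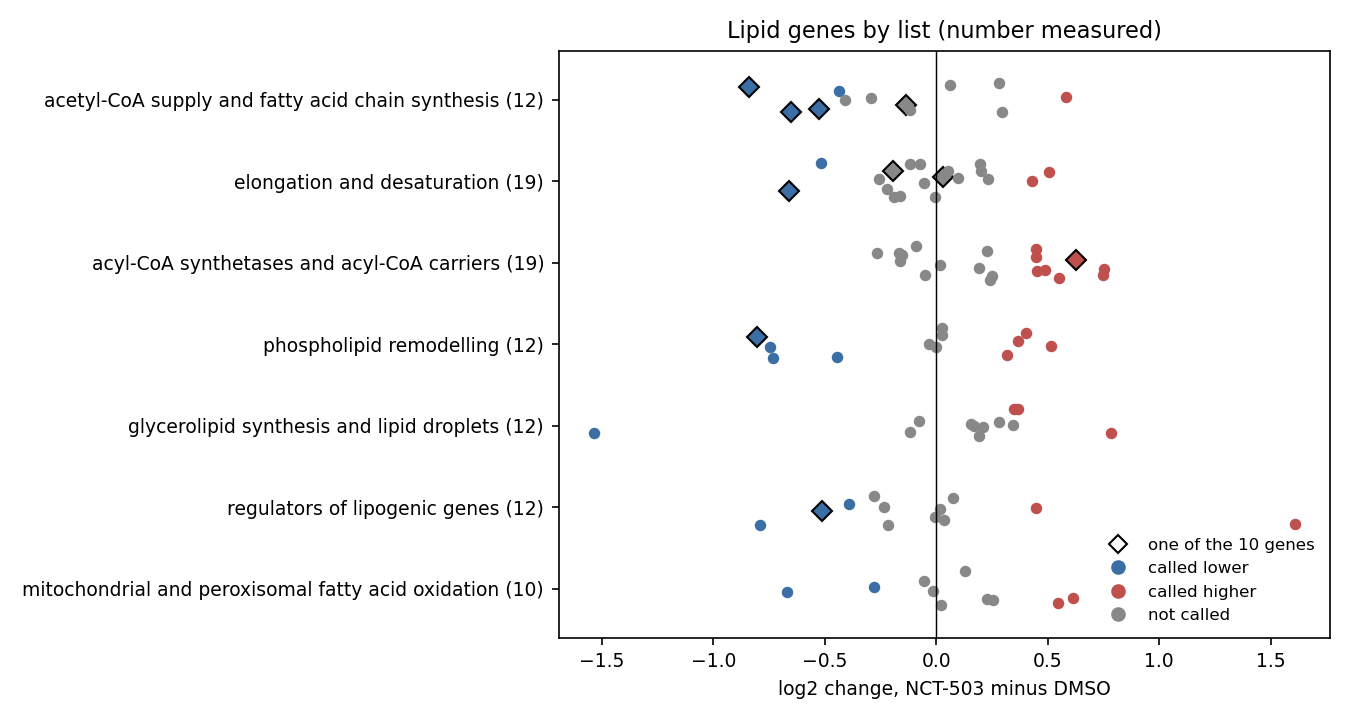
Log2 change of every measured gene of 7 lipid lists, 1 list per line with its number of measured genes, diamonds for the 10 genes and colours by call. The largest fall is HILPDA at -1.54 and the largest rise INSIG1 at 1.61, and the 10 genes lie between -0.84 and 0.63.

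Medians over all 31135 rows were 4.30 to 4.33 and correlations between arrays 0.990 to 0.993 within groups and 0.971 to 0.972 between them. Upper quartiles were 6.03 to 6.08 with NCT-503 and 6.16 to 6.19 with DMSO. Of 10 markers of adrenergic neuroblastoma 7 were measured, with group means from 5.88 (TH) to 10.41 (DBH). Signals of different array rows do not rank transcript amounts between genes, so these values do not check the cell label. CHGA (-1.23), HAND2 (-0.30) and ISL1 (-0.29) fell, PHOX2A (0.75), GATA3 (0.37) and DBH (0.37) rose, and TH (-0.16) was not called. The Schwann cell markers SOX10 and S100B had group means of 4.35 to 4.62 and were not called. Of the fibroblast list DCN fell from 4.81 to 4.34 and LUM (7.22 and 6.98) was not called. CD68, a lysosomal protein and the only measured gene of the leukocyte list, rose from 6.22 to 8.47; the part of these markers in the changes of the 10 genes was not tested.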

How the data were processed

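Total RNA of 6 samples was labelled with a whole-transcript kit and hybridised to 1 array each, per the labels' protocols. Per the submitters' processing notes, the authors used Partek; its version, the background correction, normalization, summarisation and genome build were not given in the sources used here. Values as deposited range from 0.578 to 13.6 with no missing cells and were read as log2; scanner values were not used here, so dim rows could not be set against background.

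Of 31135 rows, 15098 had 1 gene symbol in the platform annotation, all matched by Entrez identifier to RefSeq (GRCh38.p14), and 16037 had none. The row with the highest mean was used per gene, leaving 14779 genes; each of the 10 genes had 1 row. Both groups entered one limma fit (version 3.58.1, R 4.3.3; lmFit, then eBayes; no covariates; two-sided). Precision is limited by the number of arrays: the median SE of a change was 0.105.

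The 10 genes and the lists were chosen with earlier results of these data known. Genes named beyond the 10 include those of the ACSL, ELOVL, LPCAT, SCD and SREBF families and up to 4 called genes of largest absolute change per list. The 3 patterns nearest to the most changed gene are named too. CBR4, SCAP, STK11, PNPLA6, TAFAZZIN, MBOAT1, MBOAT7, ACSM1, ACSF2, ACSBG1 and the cell markers were named after their values were seen. Lists are described by counts and medians, with no list test. The limma fit was run on simulated arrays with independent noise and far fewer changed genes than here. That run does not check the calls made in these data. No pairing by the letters a, b and c is stated, and the reported fit used none. Same-letter deviations correlated at 0.0036, 0.0026 and 0.037, which cannot show whether the samples were paired.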

Additional observations from a re-analysis of the deposited data

How the results depend on the processing

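The 18 alternatives were trend and robust moderation, no moderation, array weights, the letter as a block, 3 scalings, 2 filters on dim genes, 2 ways of treating rows, each of the 6 arrays left out and an adjusted p under 0.01. No gene of the 10 had another row to try. Under all 18, ACACA, ACACB, ELOVL6, FASN, SREBF1 and LPCAT3 stayed called lower and ACSL4 higher; the highest adjusted p among them was 0.0377 (SREBF1). The count of the 10 called lower was 6 to 8, with SCD added in 5 settings and ACLY in 2 of those (trend and robust moderation, quantile normalization). With the replicate block, 6 were lower and 1 higher, and 2327 and 2108 of all genes. Whether a shared letter marks a pair is not stated. Counts over all genes were 4100 lower with every row of the table tested, which tests more features, and 1682 lower and 1226 higher at an adjusted p under 0.01. Of the 31 other lipid genes called, 20 kept their call whichever array was left out. Of the 86 measured lipid genes beside the 10, 10 were called lower and 21 higher. These counts became 9 and 27 with median centring, 9 and 29 with 75th percentile centring, and 10 and 26 with quantile normalization. Over all 14779 genes, 2534 lower and 2419 higher became 2321 and 2990, 2189 and 3345, and 2325 and 2617 under the same scalings. Changes of dim genes may be understated on this scale.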

Other observations

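Genes that store or burn fatty acids were read as lists beside the shares over all genes, 17.1% called lower and 16.4% higher, and the median change of 0.06. In the list of glycerolipid synthesis and lipid droplets, 12 of 21 listed genes were measured. Of these 12, 1 fell and 3 rose (median change 0.20). With 75th percentile centring or quantile normalization 5 rose, against 3345 and 2617 of all 14779 genes. HILPDA, which restrains lipid breakdown at droplets, fell from 7.39 ± 0.032 to 5.85 ± 0.10 (mean ± SD, n = 3 each), a change of -1.54 ± 0.081 (SE, adjusted p = 4.44e-05, limma). ABHD5, the activator of the triglyceride lipase, rose by 0.79 ± 0.070 (adjusted p = 0.000252, limma), and the lipase PNPLA2 by 0.37 ± 0.11 (adjusted p = 0.037, limma). LPIN2, a phosphatidate phosphatase, rose by 0.35 ± 0.095. The PNPLA2 call was lost without DMSO b, DMSO c, NCT-503 b or NCT-503 c (adjusted p from 0.0825 to 0.107), and the LPIN2 call without any array but DMSO a (0.0601 to 0.0747).

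In the list of fatty acid oxidation, 10 of 27 listed genes were measured. Of these 10, 2 rose and 2 fell (median change 0.08), shares near those over all genes. CPT1A, the import step that malonyl-CoA inhibits, rose from 7.57 ± 0.15 to 8.19 ± 0.19 (mean ± SD, n = 3 each), a change of 0.61 ± 0.12 (SE, adjusted p = 0.00815, limma). CPT2, the next enzyme of the same import route, fell by 0.67 ± 0.11 (adjusted p = 0.0029, limma). ACAA2, a mitochondrial thiolase, rose by 0.55 ± 0.082, and ETFDH, which passes electrons on to ubiquinone, fell by 0.28 ± 0.085. The ETFDH call was lost without any array but NCT-503 c (adjusted p from 0.0598 to 0.123, limma) and under each of the other scalings. With those scalings 4 of the 10 were called higher and 1 lower. Over all 14779 genes, 2617 to 3345 were then called higher and 2189 to 2325 lower.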
